A study of Rattus norvegicus with 16 samples.

Results

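The nuclear oxidative phosphorylation subunits are the proteins of the mitochondrial respiratory chain and ATP synthase whose genes lie in the nucleus. Their genes were picked from the deposited gene count table by symbol: Nduf followed by a, b, c, s or v and a number (with Ndufa4l2 left out), Sdha to Sdhd, symbols starting with Uqcr or Atp5, and Cox4 to Cox8 followed by a, b or c. This gave 73 genes of the 14476 in the table. They were sorted into complexes by symbol. This gave 32 genes for complex I, 4 for complex II, 8 for complex III, 13 for complex IV, with Ndufa4 counted there, and 16 for complex V. Cox7a2l is counted under complex IV, and Atp5s and Atp5sl under complex V, by symbol alone. All 73 passed the filter on low counts, and the lowest count of any of them in any library was 78, for Cox6b2. The symbol patterns take Atp5s and Atp5sl, which RefSeq now lists as Dmac2l and Dmac2, and they do not take Cox4i1, Cyc1 or Ndufab1. Cox7a1, the muscle form of subunit VIIa, fits the patterns but is not among the 73 genes. Of 26 symbols listed for the subunits encoded in the mitochondrial genome, 0 were found among the counted genes. Neither could be analysed here. The symbols Cox6b1, Ndufa3, Ndufa13, Ndufc1 and Atp5f1 also fit the patterns but are not among the 73 genes. RefSeq names at least 1 pseudogene for 34 of the 73 genes, so part of their reads may be shared with near-identical copies. The strand setting of the counting is not given in the sources used here, and reads of a subunit gene and of any gene antisense to it may have been counted together.

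Oxidative phosphorylation passes electrons from NADH and succinate through complexes I, II, III and IV to oxygen, pumps protons across the inner mitochondrial membrane on the way, and uses the proton gradient in complex V to make ATP. Skeletal muscle is rich in mitochondria, and several subunits of complex IV exist as a broadly expressed form and a form of heart and skeletal muscle. Transcription of the nuclear subunit genes is known to depend on the factors NRF-1 and NRF-2 (an ETS factor made of GABPA and GABPB1) and on the co-activator PGC-1α.

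The libraries came from a rat model of the Masquelet technique, in which a cement spacer placed in a bone defect provokes a membrane around it before the defect is grafted. In Sprague-Dawley rats both limbs received a plated osteotomy, and a spacer of PMMA (polymethyl methacrylate) cement was put into the defect on one side while the other side was left empty. After 4 weeks of healing, 2 tissues were taken from each side: the induced membrane around the spacer (IM) and the bone next to the spacer (PMMA bone), and the pre-fibrous non-union tissue of the empty defect (PFNU) and the bone next to the empty defect (BNED). Each of the 4 groups held 1 library from each of the same 4 rats, so library 1 of every group came from rat 1. No genotype, age or drug separates the groups; all tissues came from operated limbs, and no unoperated tissue is among the 16 libraries. Polyadenylated RNA was measured from whole tissue pieces, in which fewer cells of a type and less RNA per cell cannot be told apart.

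Total counts ran from 40472228 to 76815879 per library. The muscle content of a library was measured as the percentage of its counts in 30 genes of the skeletal muscle contractile apparatus and its metabolism, none of them an oxidative phosphorylation subunit. All but Myot, which was listed at 0 in 1 library or more of IM and of PMMA bone, were detected in every library. This muscle share was 2.82, 5.05, 20.1 and 26.4% in IM 1 to 4 and 10.8, 19.0, 8.08 and 19.9% in PFNU. It was 0.268, 1.64, 0.646 and 1.07% in PMMA bone, and 3.68, 5.74, 0.952 and 0.50% in BNED. IM lay above PMMA bone and PFNU above BNED with no overlap, while IM and PFNU overlapped. Summed levels of the 10 osteoblast and osteocyte markers were 13630 to 16510 CPM in PMMA bone and 4208 to 11300 in BNED, against 968 to 6802 in IM and 1562 to 6086 in PFNU, so the BNED libraries overlapped with both defect tissues on this list. Erythroid genes took 4.38 to 7.69% of counts in BNED and 0.463 to 8.29% in PMMA bone, but at most 0.472% in PFNU and 0.156% in IM. Summed neutrophil markers (9 genes) were 1183 to 1685 CPM in BNED, 204 to 566 in PMMA bone, and at most 115 in the defect tissues, and osteoclast markers (8 genes) were 3258 to 18030 CPM in bone against 811 to 4405 in defect tissue. Macrophage markers (9 genes) ranged from 1899 to 3271 CPM in IM and from 793 to 1990 in the other groups, and the 5 brown adipocyte genes, which include Cpt1b and Ppargc1a of muscle, reached 378 CPM in PFNU and 336 in IM. The part of these other cell types in the differences below was not tested, apart from erythroid content, which entered 1 alternative model.

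The summed level of the 73 subunit genes was highest in the 4 libraries with the most muscle, IM 3, IM 4, PFNU 2 and PFNU 4. Levels are in CPM, in which each count is taken as a share of its library size after TMM scaling. The sum was 8418, 13730, 17880 and 31290 CPM in IM 1 to 4 and 14690, 24930, 11650 and 28460 in PFNU. It was 7947, 9385, 8399 and 8935 in PMMA bone, and 11010, 13470, 7788 and 8248 in BNED. PMMA bone was the most even group, and within IM the highest library was IM 4, which also had the highest muscle share. From IM 1 to IM 4 the TMM factor fell (1.02, 0.973, 0.788 and 0.659) while total counts and muscle share rose. The slopes on muscle share given below were not refitted with libraries scaled by their totals alone. At like muscle shares the sums were not always alike: IM 3 (20.1% muscle) had 17880 CPM, below PFNU 4 (19.9%) with 28460 and PFNU 2 (19.0%) with 24930, while IM 2 and BNED 2, with 5.05 and 5.74% muscle, had 13730 and 13470. In percent of all counts, without any scaling, the 73 genes took 0.857 to 2.06% of an IM library, 1.28 to 2.42% of a PFNU library, 0.841 to 1.02% of a PMMA bone library and 0.894 to 1.59% of a BNED library.

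**Figure D1:**
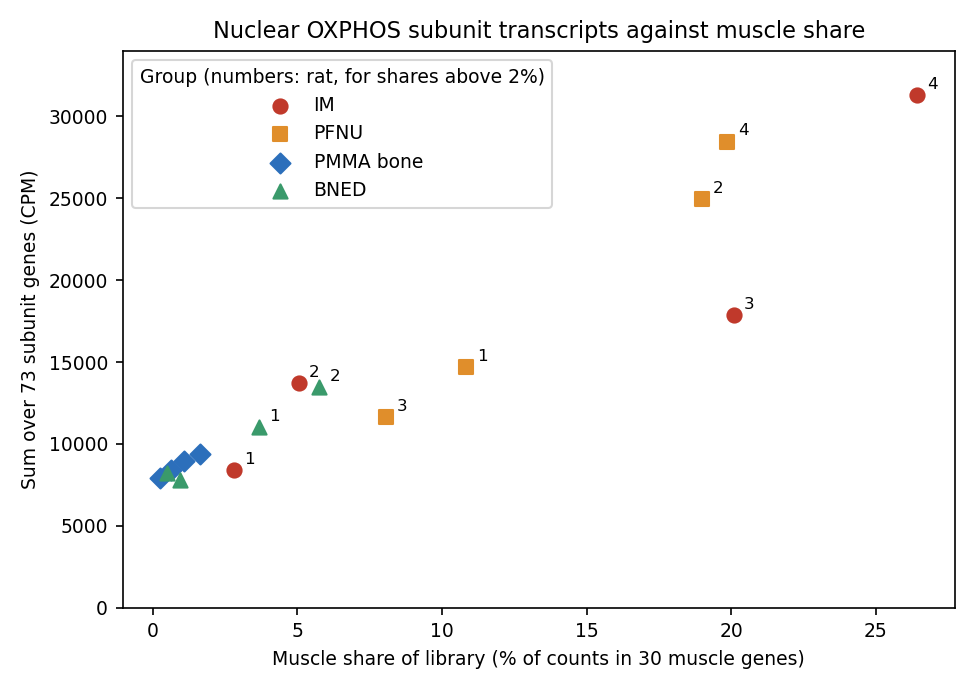
Summed level of the 73 nuclear oxidative phosphorylation subunit genes (CPM, y axis) against the muscle share of each library (percent of counts in 30 muscle genes, x axis), with 1 point per library and colour and shape for the group. Both bone groups lie at muscle shares of 5.74% or less and sums of 13470 CPM or less, and IM 3 lies below PFNU 2 and PFNU 4 at a similar muscle share.

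Values written with ± are log2 fold changes, or slopes where named, with a standard error. That error was derived from the edgeR F statistic, as the absolute value divided by the square root of F. The p was adjusted by Benjamini-Hochberg over all genes tested with edgeR. The first question was whether the tissue filling the defect and the bone beside it differed within each side. In IM against PMMA bone 35 of the 73 genes were higher and 0 lower at an adjusted p under 0.05 (11.3% of all 12857 genes tested were higher). All 73 fold changes were positive, and the median log2 fold change was 1.00 against 0.03 over all genes. On the empty side, PFNU against BNED, the counts were also 35 higher and 0 lower (15% of all genes were higher). There 71 fold changes were positive, and the median was 0.98 against 0.04 over all genes. These comparisons use different libraries but share 1 estimate of the spread, and 20 genes were higher in both while 50 were higher in at least 1. By complex, the genes higher in IM were 20 of 32 in complex I, 2 of 4 in complex II, 2 of 8 in complex III, 5 of 13 in complex IV and 6 of 16 in complex V. The genes higher in PFNU were 16, 3, 3, 5 and 8 in the same order. Levels of every IM library lay above those of every PMMA bone library for 12 of the 73 genes (7.75% of all genes did so), and every PFNU library lay above every BNED library for 24 (18.9%).

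These counts depended on single libraries, in comparisons whose groups also differed in muscle share without overlap. The 35 genes higher in IM became 67 without IM 1 and 1 without IM 4, the libraries with the lowest and the highest muscle share of that group, and 23 without IM 3, 3, 16, 6 and 9 without PMMA bone 1, 2, 3 and 4, and 21 without BNED 1. With libraries scaled by their totals alone, which moved the median of all genes to -0.30, 8 genes were higher in IM, and with only the 8 libraries of these groups in the fit, 1 was. The 35 genes higher in PFNU became 3 without PFNU 2, 58 without PFNU 3, 3 without PFNU 4, and 12, 4 and 6 without BNED 1, 3 and 4, and scaling by totals, with an all-gene median of -0.21, left 19. limma-voom with quality weights called 70 genes there. The share of all genes called is not given for these fits, nor for the fits below that left out 1 library. Such counts alone therefore do not show whether the subunit genes moved apart from other genes. The median log2 fold change of the 73 genes stayed between 0.62 and 1.22 in IM against PMMA bone, and between 0.77 and 1.17 in PFNU against BNED, over the fits that each left out 1 library. Of the genes named below, 11 missed the threshold in IM against PMMA bone but passed it without IM 1 (adjusted p of 0.0145 to 0.0473): Ndufs1, Sdha, Sdhb, Uqcrc1, Uqcrfs1, Ndufa4, Cox7a2, Atp5a1, Atp5b, Atp5g1 and Atp5g3. Ndufs1, Sdha, Uqcrc1, Uqcrfs1 and Atp5a1 also passed it without IM 2. In PFNU against BNED the calls of Sdhb, Atp5g3, Cox5a and Cox8b were each lost without PFNU 2, PFNU 4, BNED 1, BNED 3 or BNED 4 (adjusted p of 0.056 to 0.125), while Ndufs1, Uqcrfs1, Ndufa4, Cox7a2 and Atp5g1 passed without PFNU 3 (0.0291 to 0.0449).

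**Figure D2:**
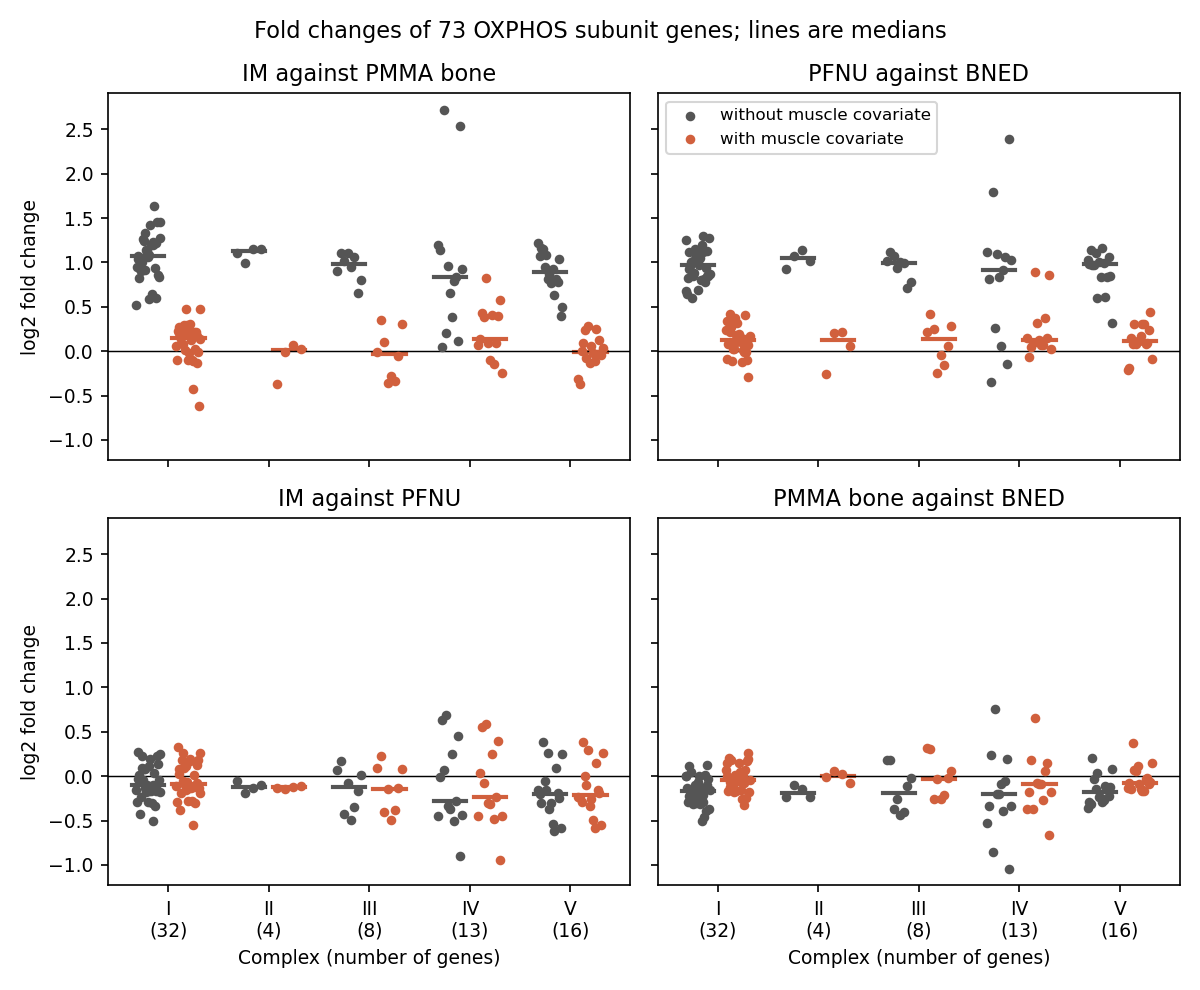
Log2 fold changes (y axis) of the 73 genes by complex (x axis, number of genes in brackets) in 4 comparisons, from fits without the muscle share (grey) and with it as a covariate (orange). Points are genes and short lines the median of each complex; the medians near 1 in both tissue comparisons move close to 0 with the covariate, and those of the spacer comparisons lie near 0 in both fits.

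Complex I takes electrons from NADH. Its subunit Ndufv1 holds the flavin that oxidises NADH, and Ndufs1 carries iron-sulfur clusters that pass the electrons on. Ndufs1 stood, for rats 1 to 4 in order, at 107, 161, 418 and 530.0 CPM in IM and 291, 564, 220.1 and 647 in PFNU. Ndufs1 in PMMA bone was at 131, 147, 119.9 and 133 CPM, and in BNED at 195, 293, 133 and 131. Its level was highest in IM 4, PFNU 2 and PFNU 4, and IM 1 lay below all 4 PMMA bone libraries. The log2 fold changes were 1.20 ± 0.46 (adjusted p = 0.0738) in IM against PMMA bone and 1.19 ± 0.46 (adjusted p = 0.0611) in PFNU against BNED. Ndufv1 stood at 114, 74.5, 250.4 and 382 CPM in IM and 168, 251, 120.1 and 308 in PFNU. Ndufv1 in PMMA bone was at 78.0, 129.6, 131 and 122 CPM, and in BNED at 119, 189, 84.5 and 77.6. All groups overlapped for Ndufv1, with log2 fold changes of 0.83 ± 0.45 (adjusted p = 0.192) and 0.85 ± 0.45 (adjusted p = 0.161).

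The complex I genes with the smallest p were accessory subunits. Ndufv3, a small subunit beside the flavin-bearing one, stood at 58.8, 112, 117 and 191 CPM in IM and 81.7, 117, 68.6 and 135 in PFNU. Ndufv3 in PMMA bone was at 43.0, 57.8, 44.7 and 52.7 CPM, and in BNED at 62.5, 64.7, 46.04 and 47.4. Every IM library lay above every PMMA bone library, and Ndufv3 was higher in IM by 1.27 ± 0.30 (adjusted p = 0.00863) on the log2 scale. Ndufb4, a subunit of the membrane arm, stood at 69.3, 128, 150.2 and 223 CPM in IM and 112, 193, 101 and 204 in PFNU. Ndufb4 in PMMA bone was at 65.8, 65.2, 59.1 and 70.4 CPM, and in BNED at 79.6, 78.6, 62.5 and 69.5. IM 1 lay within the range of PMMA bone, all PFNU libraries lay above all BNED libraries, and Ndufb4 was higher in both defect tissues, by 1.13 ± 0.30 (adjusted p = 0.0152) and 1.07 ± 0.30 (adjusted p = 0.0143). Ndufb2, also of the membrane arm, stood at 56.5, 102, 71.3 and 208 CPM in IM and 37.7, 43.4, 44.6 and 48.2 in PMMA bone, without overlap, and it was higher in IM by 1.33 ± 0.35 (adjusted p = 0.0156). For PFNU against BNED the others of smallest p were Ndufa5, a subunit of the peripheral arm, at 114, 198, 109 and 231 CPM in PFNU and 81.4, 77.9, 61.2 and 79.4 in BNED, and Ndufa10, an accessory subunit, at 24.8, 42.3, 21.6 and 49.3 and 15.6, 18.5, 12.6 and 11.3. Neither overlapped between PFNU and BNED. Ndufa5 was higher in PFNU by 1.12 ± 0.30 (adjusted p = 0.0131), and Ndufa10 by 1.25 ± 0.35 (adjusted p = 0.0145). The calls of Ndufv3 in IM and of Ndufb4 and Ndufa5 in PFNU held without any 1 library, those of Ndufb4 and Ndufb2 in IM were lost without IM 4 (adjusted p = 0.0519 and 0.0588), and that of Ndufa10 was lost without PFNU 4 (adjusted p = 0.0518).

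Complex II, succinate dehydrogenase, is also an enzyme of the citric acid cycle, and all of its subunits are nuclear. Its flavoprotein Sdha stood at 158, 207, 535 and 688 CPM in IM and 304, 539.5, 236 and 563 in PFNU. Sdha in PMMA bone was at 158, 198, 189.6 and 191 CPM, and in BNED at 225, 320.2, 167 and 153. For Sdha, IM 1 lay just under the range of PMMA bone and PFNU 3 below BNED 2. Its iron-sulfur subunit Sdhb stood at 108, 171, 239 and 337 CPM in IM and 188, 297, 142 and 346 in PFNU. Sdhb in PMMA bone was at 86.5, 120.2, 112 and 113 CPM, and in BNED at 122, 171, 90.04 and 79.7. For Sdhb, IM 1 lay within the range of PMMA bone and PFNU 3 again below BNED 2. The log2 fold changes of Sdha were 1.11 ± 0.42 (adjusted p = 0.0702) in IM against PMMA bone and 0.93 ± 0.42 (adjusted p = 0.105) in PFNU against BNED. Sdhb had 0.99 ± 0.35 (adjusted p = 0.0529) in the first comparison and was higher in PFNU by 1.07 ± 0.35 (adjusted p = 0.0309).

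Complex III passes electrons from ubiquinol to cytochrome c. The core protein Uqcrc1 stood at 144, 152, 346 and 605 CPM in IM and 242, 412, 182 and 481 in PFNU. Uqcrc1 in PMMA bone was at 113, 161, 149 and 154 CPM, and in BNED at 179, 268, 124 and 118. For Uqcrc1, BNED 2 exceeded PFNU 1 and PFNU 3, and IM 1 fell within the range of PMMA bone. The Rieske iron-sulfur protein Uqcrfs1 stood at 129, 154, 290.4 and 544 CPM in IM and 242, 477, 197 and 504 in PFNU. Uqcrfs1 in PMMA bone was at 125, 142, 129.5 and 141 CPM, and in BNED at 201, 240.4, 135 and 135. For Uqcrfs1, BNED 2 exceeded PFNU 3, and IM 1 again fell within the range of PMMA bone. Neither passed the test. In IM against PMMA bone and PFNU against BNED, Uqcrc1 differed by 1.11 ± 0.44 (adjusted p = 0.0785) and 0.93 ± 0.44 (adjusted p = 0.114), and Uqcrfs1 by 1.06 ± 0.41 (adjusted p = 0.0758) and 0.99 ± 0.41 (adjusted p = 0.0768).

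Complex V makes ATP, with Atp5a1 and Atp5b as the subunits of its catalytic head. Atp5a1 stood at 556, 754, 1572 and 2771 CPM in IM and 1121, 2022, 859 and 2316 in PFNU. Atp5a1 in PMMA bone was at 531, 629, 598 and 666 CPM, and in BNED at 818, 1177, 583 and 534. IM 4 was the highest library for Atp5a1, and BNED 2 exceeded PFNU 1 and PFNU 3. Atp5b stood at 1084, 1339, 2748 and 4657 CPM in IM and 1979, 3641, 1539 and 4159 in PFNU. Atp5b in PMMA bone was at 1099, 1249, 1150 and 1169 CPM, and in BNED at 1540, 2154, 1007 and 1029. Atp5b had the same order of these libraries. Neither passed the test: Atp5a1 had log2 fold changes of 1.22 ± 0.46 (adjusted p = 0.0652) and 1.02 ± 0.45 (adjusted p = 0.0976), and Atp5b of 1.07 ± 0.44 (adjusted p = 0.0913) and 0.98 ± 0.44 (adjusted p = 0.103).

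Atp5g1, Atp5g2 and Atp5g3 encode the same mature subunit c of the rotating ring, with different import sequences. Atp5g1 stood at 88.0, 148, 187 and 338 CPM in IM and 153, 262, 108 and 325 in PFNU. Atp5g1 in PMMA bone was at 64.6, 108, 89.9 and 95.5 CPM, and in BNED at 104, 158, 69.1 and 64.2. Atp5g1 was highest in IM 4 and PFNU 4. Atp5g2 stood at 208, 427, 299 and 552 CPM in IM and 264, 359, 223 and 397 in PFNU. Atp5g2 in PMMA bone was at 168, 223, 219 and 235 CPM, and in BNED at 218, 249.9, 174 and 180.0. Atp5g2 was highest in IM 4 and IM 2. Atp5g3 stood at 157, 229, 287 and 511 CPM in IM and 282, 486, 218 and 547 in PFNU. Atp5g3 in PMMA bone was at 145, 181, 165 and 155 CPM, and in BNED at 209, 249, 148 and 157. IM 1 lay within the range of PMMA bone and PFNU 3 below BNED 2 for all 3 genes. Atp5g2 was higher in IM than in PMMA bone by 0.81 ± 0.27 (adjusted p = 0.044), a call lost without any 1 library other than IM 1, IM 3, PFNU 3, PFNU 4 and BNED 2 (adjusted p of 0.0523 to 0.161). Atp5g3 was higher in PFNU than in BNED by 1.01 ± 0.34 (adjusted p = 0.038). The other values were 1.09 ± 0.42 (adjusted p = 0.071) and 1.10 ± 0.42 (adjusted p = 0.0559) for Atp5g1, 0.60 ± 0.27 (adjusted p = 0.106) for Atp5g2 in PFNU against BNED, and 0.87 ± 0.34 (adjusted p = 0.0781) for Atp5g3 in IM against PMMA bone.

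The second question was how the genes went with muscle share among libraries of the same tissue. In the model of 4 group means plus muscle share, 65 of the 73 genes were higher with more muscle (16.1% of all genes were) and 2 were lower (11.4% of all genes were). The median slope was 0.64 on the log2 scale for each 10 percentage points of muscle share, against -0.01 over all genes. The genes that rose were 30 of 32 in complex I, 4 of 4 in complex II, 7 of 8 in complex III, 9 of 13 in complex IV and 15 of 16 in complex V. The genes with no call were Ndufa1, Ndufs5, Uqcrq, Cox7a2l, Cox8a and Atp5s. Leaving out IM 4, the library with the most muscle, lowered the number of genes with a slope from 67 to 38, all of them rising.

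The subunits of complexes I, II, III and V described above rose with muscle share. Ndufs1 rose by 1.06 ± 0.10 (adjusted p = 8.69e-06), Ndufv1 by 0.95 ± 0.13 (adjusted p = 0.00013), Sdha by 0.97 ± 0.09 (adjusted p = 5.38e-06) and Sdhb by 0.71 ± 0.11 (adjusted p = 0.000412) for each 10 points. In complex III, Uqcrc1 rose by 0.96 ± 0.10 (adjusted p = 1.47e-05) and Uqcrfs1 by 0.92 ± 0.08 (adjusted p = 6.31e-06). In complex V, Atp5a1 rose by 1.00 ± 0.10 (adjusted p = 1.34e-05) and Atp5b by 0.95 ± 0.11 (adjusted p = 2.87e-05). The 3 subunit c genes had slopes of 0.82 ± 0.14 (adjusted p = 0.000749) for Atp5g1, 0.39 ± 0.13 (adjusted p = 0.0344) for Atp5g2 and 0.71 ± 0.10 (adjusted p = 0.000179) for Atp5g3. The call of Atp5g2 was lost without IM 1, IM 4, BNED 2 or any 1 PFNU library (adjusted p of 0.0503 to 0.373).

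**Figure D3:**
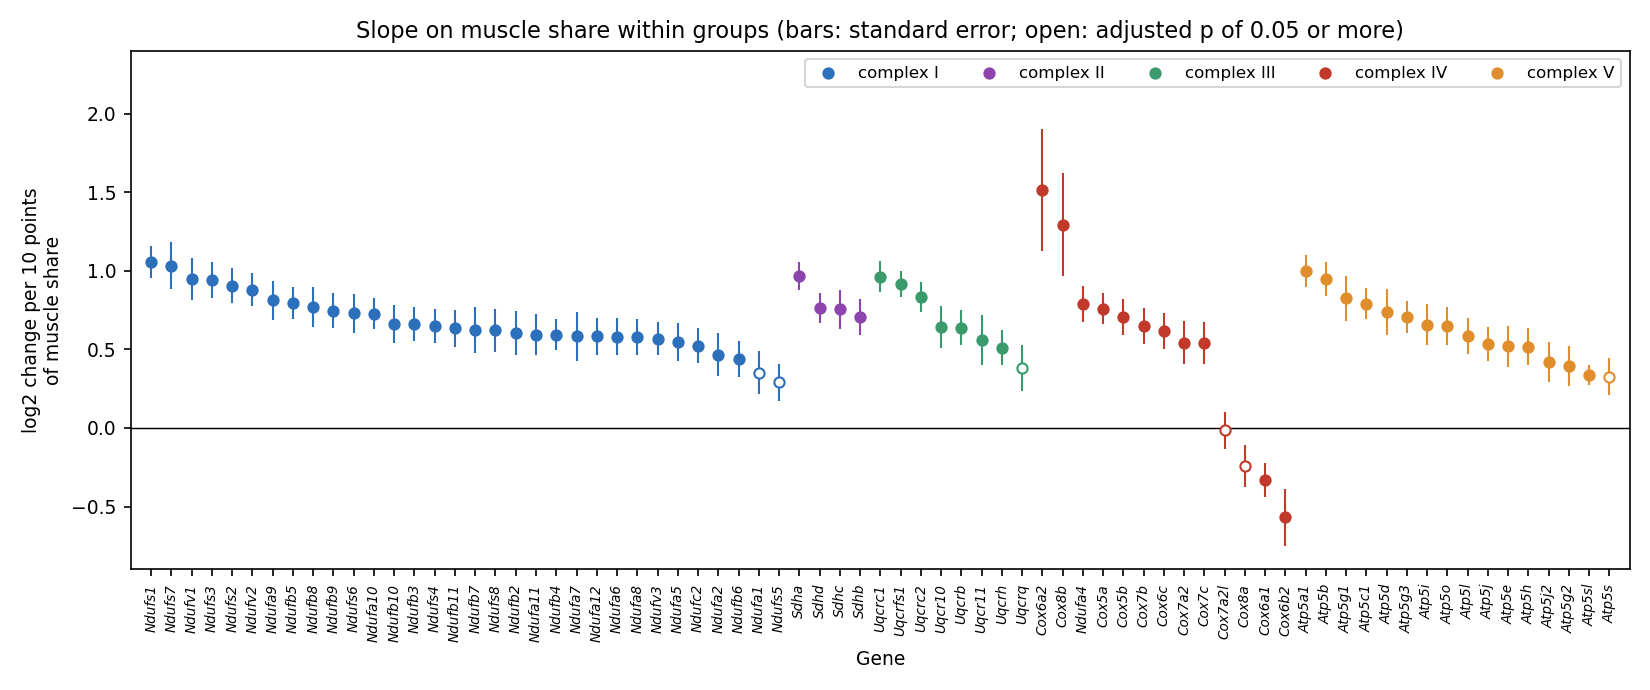
Slope on muscle share (log2 change for each 10 percentage points, y axis) of each of the 73 genes (x axis), ordered by size within complexes I to V, with standard errors as bars and open symbols where the adjusted p was 0.05 or more. The slopes of complexes I, II, III and V are all positive, and complex IV holds both the highest, Cox6a2 at 1.51, and the lowest, Cox6b2 at -0.57.

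With the muscle share in the model, none of the 73 genes was called between defect tissue and bone. In IM against PMMA bone 0 of 73 were called with edgeR (14.6% of all genes were, in either direction), 2 were higher and 1 lower at an unadjusted p under 0.05, and DESeq2 called 0. The median log2 fold change was 0.08 against -0.04 over all genes. In PFNU against BNED 0 were called with edgeR (22.9% of all genes were), 1 was higher and 0 lower at an unadjusted p under 0.05, and DESeq2 called 0. The median there was 0.12 against 0.00. Without IM 1, 5 genes were called in IM against PMMA bone: Cox6a1, Cox6b2, Cox7a2l and Ndufv3 higher and Ndufv1 lower. Without IM 2 it was Ndufa4 alone, lower, and without IM 1 Cox6b2 was higher in PFNU than in BNED. With the log2 of the muscle share as the covariate, Cox6a2 was lower in IM than in PMMA bone, with a log2 fold change of -1.38.

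A straight-line covariate left differences in muscle genes. With it in the model, 10 of the 11 fast-fibre genes were still higher in IM than in PMMA bone, with a median log2 fold change of 3.46, and 1 of 11 was higher in PFNU than in BNED, with a median of 1.39. The latter count was 0 without IM 4 or PFNU 3, 2 without PMMA bone 3, and 4 without PMMA bone 1 or BNED 1. Of the 11 genes of slow and oxidative fibres 6 were lower in IM than in PMMA bone, with a median of -3.57, and 0 were called between PFNU and BNED. Over all genes, with the covariate, 8% were higher and 6.56% lower in IM than in PMMA bone, and 11.7% were higher in PFNU than in BNED. All fast-fibre genes but Pvalb are themselves among the 30 genes of the muscle share. So are Myh7, Myh2, Myl2, Myl3, Tnnt1, Tnni1 and Tnnc1 of the slow-fibre list. What the line left in them is therefore no independent measure of muscle content. The muscle shares of IM and PMMA bone do not overlap, nor do those of PFNU and BNED, so the covariate compares both pairs along the line fitted within groups.

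Of the complexes, complex IV alone had slopes on muscle share called in both directions, though its 2 falling calls, of Cox6a1 and Cox6b2, were lost with the log2 of the share. It reduces oxygen, and its catalytic core is encoded in the mitochondrial genome and surrounded by nuclear subunits. Cox5a, a subunit on the matrix side, stood at 146, 213, 266 and 569 CPM in IM and 304, 532, 229.6 and 562 in PFNU. Cox5a in PMMA bone was at 132, 138, 125 and 128 CPM, and in BNED at 217, 225, 150 and 161. IM lay above PMMA bone, PFNU above BNED and BNED above PMMA bone in every library, and Cox5a was higher in both, by 1.19 ± 0.37 (adjusted p = 0.0305) and 1.11 ± 0.36 (adjusted p = 0.0321), with a slope of 0.76 ± 0.10 (adjusted p = 8.18e-05) for each 10 points of muscle share. In IM against PMMA bone the call of Cox5a was lost without IM 4 or any 1 PMMA bone library (adjusted p of 0.0536 to 0.131). Ndufa4, named for complex I but a subunit of complex IV, stood at 126, 253, 296 and 609.8 CPM in IM and 303, 573, 254 and 608 in PFNU. Ndufa4 in PMMA bone was at 165, 179, 163 and 171 CPM, and in BNED at 228, 256, 166 and 205. Its log2 fold changes were 0.92 ± 0.38 (adjusted p = 0.0915) and 1.03 ± 0.38 (adjusted p = 0.0538), and its slope was 0.79 ± 0.11 (adjusted p = 0.000182). Cox7a2, the broadly expressed form of subunit VIIa, stood at 108, 197, 140.3 and 338 CPM in IM and 178, 317, 156 and 365 in PFNU. Cox7a2 in PMMA bone was at 128, 136, 114 and 120.4 CPM, and in BNED at 153, 159, 116 and 143. Cox7a2 passed neither tissue test, with 0.65 ± 0.32 (adjusted p = 0.153) and 0.83 ± 0.32 (adjusted p = 0.0622), and rose with muscle share by 0.54 ± 0.14 (adjusted p = 0.0085), a call lost without IM 1 (adjusted p = 0.063) or IM 4 (adjusted p = 0.246).

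Subunits VIa and VIII each have a broad and a muscle form in the table, Cox6a1 with Cox6a2 and Cox8a with Cox8b. The 250 bases before the RefSeq start sites (build GRCr8) of 3 of these genes are shown because the muscle forms Cox6a2 and Cox8b rose with muscle share and the broad forms did not. They lie at chr1:192219717-192219966 for Cox6a2, chr1:213833624-213833873 for Cox8a and chr1:205408274-205408523 for Cox8b, all on the minus strand. Capitals mark matches to 6 motifs searched on both strands: NRF-1 (GCGCANGCG), ETS (CCGGAAG), YY1 (AANATGGCG), ERR-alpha (TCAAGGTCA), MEF2 (CTANNNNTA) and the E-box CAGCTG, which MyoD is known to bind.
Cox6a2: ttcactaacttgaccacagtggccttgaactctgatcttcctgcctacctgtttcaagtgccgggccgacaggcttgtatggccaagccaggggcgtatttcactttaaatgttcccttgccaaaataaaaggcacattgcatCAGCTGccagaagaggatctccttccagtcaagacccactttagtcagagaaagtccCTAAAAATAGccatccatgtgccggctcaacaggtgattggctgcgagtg
Cox8b: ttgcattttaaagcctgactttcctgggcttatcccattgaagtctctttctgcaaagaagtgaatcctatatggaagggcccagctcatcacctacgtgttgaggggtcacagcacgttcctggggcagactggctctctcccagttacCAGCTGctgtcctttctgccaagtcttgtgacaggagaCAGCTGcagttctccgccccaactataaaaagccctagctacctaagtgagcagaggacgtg
Cox8a: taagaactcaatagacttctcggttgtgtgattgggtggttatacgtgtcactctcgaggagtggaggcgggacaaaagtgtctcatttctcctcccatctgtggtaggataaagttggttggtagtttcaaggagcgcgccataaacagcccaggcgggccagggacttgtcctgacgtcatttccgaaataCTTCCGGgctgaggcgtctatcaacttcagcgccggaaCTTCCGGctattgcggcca
In Cox6a2 the capitals are 1 CAGCTG at bases -107 to -102 and MEF2 matches on both strands that overlap at -50 to -41, counted so that -1 is the base before the start site. In Cox8b they are a pair of CAGCTG, at -100 to -95 and -62 to -57. In Cox8a they are a pair of ETS matches on the strand opposite to the gene, printed as CTTCCGG, at -57 to -51 and -19 to -13. A match is a stretch of letters in the window and not evidence of binding.

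Cox6a2, the heart and muscle form of subunit VIa, stood at 105, 224, 716 and 1008 CPM in IM and 348, 669, 202 and 736 in PFNU. Cox6a2 in PMMA bone was at 20.1, 134, 52.7 and 106 CPM, and in BNED at 158, 336, 54.7 and 16.5. The highest values were in IM 3, IM 4, PFNU 2 and PFNU 4, and the bone libraries ranged widely, up to 336 CPM in BNED 2. Cox6a2 was higher in IM than in PMMA bone by 2.72 ± 0.88 (adjusted p = 0.0389), and its difference between PFNU and BNED was 1.79 ± 0.85 (adjusted p = 0.12). The first call was lost without IM 3, IM 4, PMMA bone 1, 3 or 4, or BNED 1 (adjusted p of 0.0506 to 0.12), and the second difference passed the test without BNED 2 (adjusted p = 0.039). Its slope, 1.51 ± 0.39 (adjusted p = 0.0096) for each 10 points of muscle share, was the highest of the 73.

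Cox6a1, the broadly expressed form, went the other way. It stood at 170.4, 312, 136 and 141 CPM in IM and 128, 108, 133 and 122 in PFNU. Cox6a1 in PMMA bone was at 191, 175, 191 and 179 CPM, and in BNED at 164, 133, 142 and 184. It was highest in IM 2 and at most 133 CPM in PFNU. The fold changes between tissues were 0.05 ± 0.22 (adjusted p = 0.901) in IM against PMMA bone, which turned negative without IM 2, and -0.34 ± 0.22 (adjusted p = 0.259) in PFNU against BNED. Its level fell with muscle share, with a slope of -0.33 ± 0.11 (adjusted p = 0.0333) for each 10 points, a call lost without IM 2, IM 3, IM 4, PFNU 2 or PFNU 3 (adjusted p of 0.0501 to 0.135) and with the log2 of muscle share as the covariate (adjusted p = 0.153). The ratio of Cox6a2 to Cox6a1 reads, in each library, was 0.615, 0.720, 5.26 and 7.15 in IM and 2.73, 6.19, 1.52 and 6.04 in PFNU. It was 0.105, 0.766, 0.276 and 0.593 in PMMA bone and 0.960, 2.53, 0.386 and 0.0894 in BNED. The ratio was above 1 in the libraries of 5.74% muscle or more and below 1 in all others. RefSeq lists 2 pseudogenes of Cox6a1, with which its reads may be shared.

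Cox8b, the heart and muscle form of subunit VIII, stood at 55.1, 80.5, 127 and 394 CPM in IM and 189.8, 386, 132 and 513 in PFNU. Cox8b in PMMA bone was at 9.13, 49.9, 17.1 and 37.0 CPM, and in BNED at 78.1, 117, 27.7 and 9.95. No IM library overlapped with PMMA bone and no PFNU library with BNED, and Cox8b was higher in both defect tissues, by 2.54 ± 0.79 (adjusted p = 0.0331) and 2.39 ± 0.79 (adjusted p = 0.0328). The call in IM was lost without IM 4 or PMMA bone 1, 3 or 4 (adjusted p of 0.0615 to 0.149). Its slope on muscle share was 1.29 ± 0.33 (adjusted p = 0.00916), lost without IM 4 (1.30, adjusted p = 0.103). Cox8a, the broad form, stood at 139.8, 251, 89.5 and 144 CPM in IM and 109, 105, 117 and 125 in PFNU. Cox8a in PMMA bone was at 149, 141, 146 and 138 CPM, and in BNED at 140.0, 92.0, 124 and 147. All PFNU libraries lay below all PMMA bone libraries for Cox8a, and the other groups overlapped. Its fold change was 0.12 ± 0.24 (adjusted p = 0.751) in IM against PMMA bone, negative without IM 2, and -0.14 ± 0.24 (adjusted p = 0.674) in PFNU against BNED, and its slope of -0.24 ± 0.13 (adjusted p = 0.195) did not pass the test. The ratio of Cox8b to Cox8a reads was 0.394, 0.321, 1.42 and 2.74 in IM and 1.75, 3.67, 1.13 and 4.11 in PFNU. It was 0.0614, 0.354, 0.117 and 0.267 in PMMA bone and 0.558, 1.27, 0.223 and 0.0678 in BNED. The 4 PFNU libraries, IM 3, IM 4 and BNED 2 had ratios above 1.

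**Figure D4:**
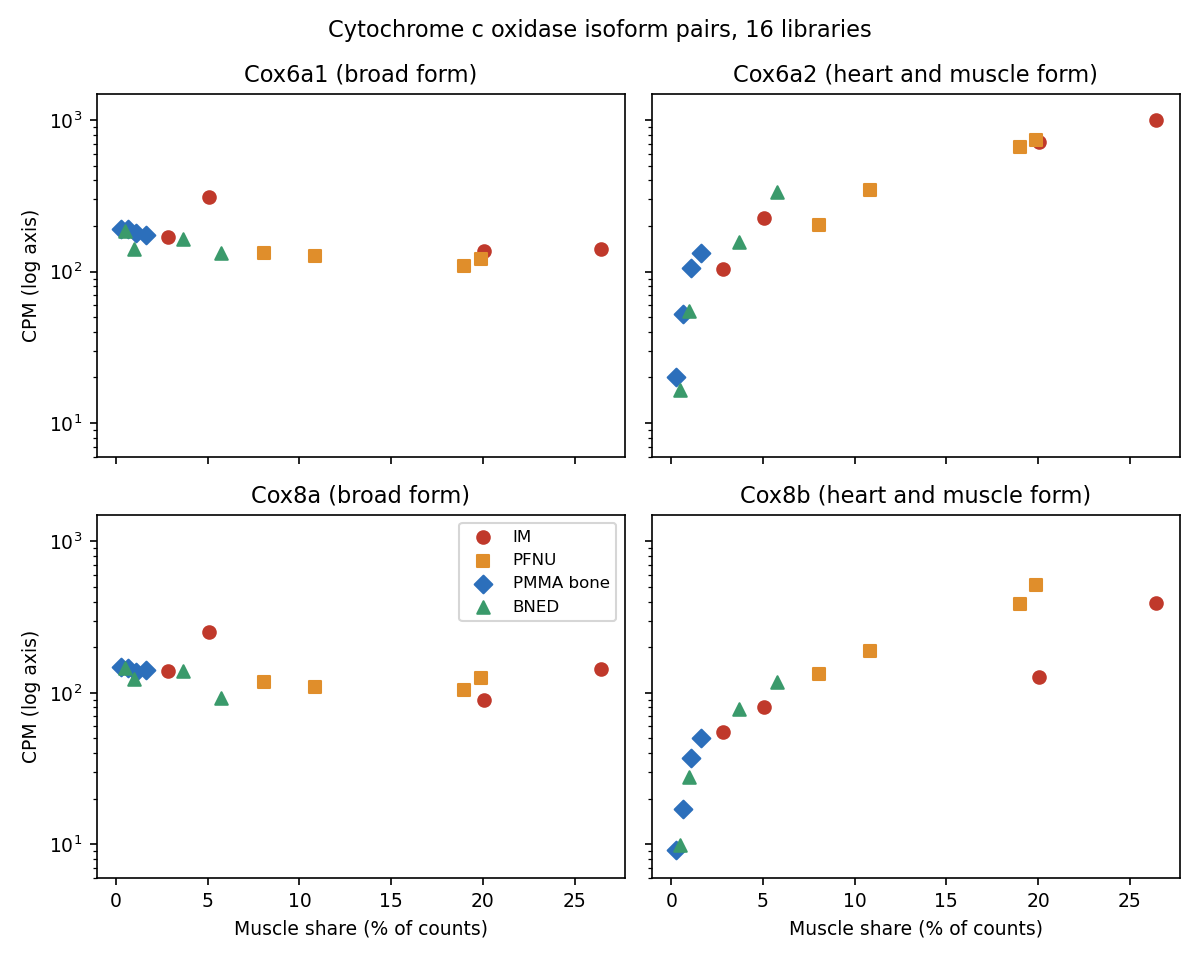
Level (CPM, log axis) of the broad forms Cox6a1 and Cox8a (left) and of the heart and muscle forms Cox6a2 and Cox8b (right) against muscle share (percent of counts) in 16 libraries, with colour and shape for the group. From PMMA bone 1, with the least muscle, to IM 4, with the most, Cox6a2 goes from 20.1 to 1008 CPM and Cox8b from 9.13 to 394, while the left panels stay between 89.5 and 312 CPM.

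Cox6b2, known as the testis form of subunit VIb, was the other gene that fell with muscle share and was named after its values were seen. It stood at 3.17, 7.20, 1.87 and 2.53 CPM in IM and 2.94, 1.56, 2.85 and 1.82 in PFNU. Cox6b2 in PMMA bone was at 2.55, 3.07, 2.92 and 4.29 CPM, and in BNED at 1.66, 1.77, 2.24 and 1.95. The lowest single count of the 73 genes was among these values. It fell with a slope of -0.57 ± 0.18 (adjusted p = 0.0317) for each 10 points of muscle share. The call was lost without IM 2, IM 3, IM 4, PFNU 2, PFNU 3 or PFNU 4, with adjusted p of 0.0545 to 0.139, and with the log2 of muscle share as the covariate (adjusted p = 0.343). IM 2 held its highest value. Cox6b1 was not among the 73 genes, so its level is not given here.

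The third question was whether the spacer changed the genes within a tissue. In IM against PFNU 0 of 73 genes were called with edgeR (0.863% of all genes were), 1 was higher and 2 were lower at an unadjusted p under 0.05, and DESeq2 and limma-voom also called 0. The median log2 fold change was -0.14 against 0.01 over all genes, with 24 positive and 49 negative values. The smallest adjusted p belonged to Cox6a1, whose IM libraries all lay above the PFNU libraries, with a log2 fold change of 0.63 ± 0.23 (adjusted p = 0.188). For Ndufs1 the value was -0.50 ± 0.46 (adjusted p = 0.667), and for Cox8b -0.89 ± 0.75 (adjusted p = 0.631). Standard errors of the 73 values ran from 0.18 to 0.83.

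With the muscle share in the model, IM against PFNU again gave 0 of 73 calls with edgeR (4.28% of all genes were called). At an unadjusted p under 0.05, 2 genes were higher and 10 lower, and the median was -0.13 against -0.02. The smallest adjusted p was that of Ndufs1, at -0.55 ± 0.16 (adjusted p = 0.0646), followed by Atp5j, Uqcrc2 and Cox6a1, the last at 0.56 ± 0.17 (adjusted p = 0.0792). DESeq2 called 3 genes lower, Atp5j (a stalk subunit of ATP synthase) at -0.60, Ndufs1 at -0.57 and Uqcrc2 (a core protein of complex III) at -0.51. Atp5j was called, at -0.58, with muscle and erythroid share as covariates. Single libraries moved this count. Without IM 2, 13 genes were lower in IM: Ndufs1, Ndufs4, Ndufa5, Ndufb5, Uqcrb, Uqcrc2, Cox5a, Cox6c, Cox7b, Ndufa4, Atp5h, Atp5i and Atp5j. Without IM 1 the 1 call was Cox6a1, higher, and without BNED 2 it was Ndufs1, lower. IM 2 had the second lowest muscle share of its group. Genes named here outside the fixed panel were chosen after their values were seen. Slow and oxidative-fibre genes differed between these tissues: their summed level was 736 to 2708 CPM in IM and 3996 to 17370 in PFNU, and 6 of 11 were lower in IM both with and without the covariate, with the smallest p for Myh7, Myl2 and Tnnt1. With the covariate that count was 0 without IM 4 and 3 to 8 without any other library, and without the covariate it was 1 to 6, the lowest without PFNU 4. Among all genes tested, 1.48% were lower in IM with the covariate and 0.498% without it. With the share of slow-fibre and of fast-fibre genes as separate covariates, 0 of 73 subunit genes were called and the median was 0.17.

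In PMMA bone against BNED 0 of 73 genes were called with edgeR (4.91% of all genes were), 0 at an unadjusted p under 0.05, 0 by DESeq2 and 1 by limma-voom. The median log2 fold change was -0.17 against -0.01 over all genes, with 14 positive and 59 negative values. For Cox8b the value was -1.04 ± 0.76 (adjusted p = 0.416), for Cox6a2 -0.85 ± 0.83 (adjusted p = 0.553), which turned positive without BNED 2, and for Ndufs1 -0.50 ± 0.46 (adjusted p = 0.521). With the muscle share in the model 0 of 73 were called with edgeR (11.5% of all genes were), 1 was higher and 1 lower at an unadjusted p under 0.05, DESeq2 called 0, and the median was -0.05 against 0.02. With the log2 of the muscle share, Atp5d (a stalk subunit of ATP synthase) and Cox6a2 were higher in PMMA bone, by 0.76 and 0.91.

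The difference between the spacer's difference in defect tissue and that in bone was called for 0 of 73 genes with edgeR (0% of all genes were called). At an unadjusted p under 0.05, 0 subunit genes were called, against 525 genes higher and 624 lower of all genes tested. DESeq2 and limma-voom called 0 of the 73, and 129 and 218 of all genes. The median was 0.04 against 0.01 over all genes. Comparisons in this report share libraries, since IM enters both the tissue and the spacer comparison, and their values are not independent of each other.

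Across the 16 libraries 65 of the 73 genes had a Pearson correlation of at least 0.9 with the mean log2 CPM of all 73, with a median of 0.957. These libraries share 4 rats and differ in muscle share, and the correlations are a description. The 4 genes under 0.5 were all counted under complex IV by symbol: Cox6a1 at -0.45, Cox6b2 at -0.21, Cox8a at -0.19 and Cox7a2l at 0.49. Outside the 73 genes, the 5 with the highest correlation to that mean were Slc25a3 (the mitochondrial phosphate carrier) at 0.995, Mrpl45 (a mitochondrial ribosomal protein) at 0.990, and Timm17a (a subunit of the inner membrane import machinery), Rangrf and Mpc1 (a subunit of the mitochondrial pyruvate carrier), each at 0.988.

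Other genes of mitochondrial energy supply went with muscle share as well. Of all genes tested, 16.1% rose and 11.4% fell. Of the enzymes of the citric acid cycle and pyruvate oxidation, 17 of 18 rose with muscle share, with a median slope of 0.82, among them Idh3a at 1.05, Cs (citrate synthase) at 0.94 and Pdhb at 0.85. In fatty acid oxidation 16 of 18 rose, with a median of 0.73, with the smallest p for Hadhb, Cpt2 and Acadvl, at 0.92, 0.86 and 0.82. Of 32 assembly factors, which build the complexes but are not part of them, 25 rose, with a median of 0.44, with the smallest p for Coa5, Lrpprc and Tmem70, at 1.00, 0.65 and 0.71, and the count was 11 without IM 4. Of 10 carriers and creatine kinases 8 rose and 1 fell, with a median of 0.93, with the smallest p for Slc25a11, Vdac1 and Vdac3, at 1.11, 1.08 and 0.79. Of 14 regulators of mitochondrial biogenesis 7 rose, with a median of 0.44, with the smallest p for Ppara, Tfam and Tfb2m, at 1.85, 0.54 and 0.47, and 3 did so without IM 4. Glycolysis had 10 of 18 rising and 3 falling, with a median of 0.95, with the smallest p for Gpi, Pkm and Pgk1, at 1.05, 1.19 and 0.88; its Eno3 is also 1 of the genes that make up the muscle share.

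Between defect tissue and bone the same lists had medians, in IM against PMMA bone and PFNU against BNED, of 1.07 and 1.01 for the citric acid cycle, 0.85 and 0.93 for fatty acid oxidation, 0.50 and 0.45 for assembly factors, 1.13 and 1.17 for carriers, 0.06 and 0.24 for regulators, and 2.03 and 1.64 for glycolysis. The genes called higher were 7 and 9 of 18 in the citric acid cycle, with Idh3a, Suclg1 and Sucla2 at the smallest p in both comparisons. In fatty acid oxidation they were 2 and 8 of 18, with Acadm and Hadhb in both. Of all genes tested, 11.3% and 15% were higher. The 2 of 18 in fatty acid oxidation in IM lay near that share. Among assembly factors 6 and 8 of 32 were called higher, such as Uqcc2 at 1.01 and 1.03, and among carriers 5 and 4 of 10. Among glycolytic genes 10 and 11 of 18 were, such as Pgam2 at 5.75 in IM and Tpi1 at 2.37 in PFNU. In the other direction, 1 and 2 carriers and 1 and 1 glycolytic genes were called lower. The citric acid cycle, fatty acid oxidation and assembly factor lists had 0 called lower. Of the 14 regulators, 0 were higher with edgeR in either comparison, 3 and 1 were so at an unadjusted p under 0.05, and without IM 1 and BNED 2 the counts were 3 and 2. Nrf1, which encodes NRF-1, was lower in PFNU than in BNED, with a log2 fold change of -0.77 ± 0.17 (adjusted p = 0.00415). In IM against PMMA bone the counts of higher genes fell without IM 4. They fell to 1 in the citric acid cycle, 0 in fatty acid oxidation, 0 of the assembly factors and 1 of the carriers. Without IM 1 they rose to 14, 13, 16 and 7. Leaving out any 1 of the PMMA bone libraries left 1 or 2 assembly factors, 3 to 6 genes of the citric acid cycle, 0 of fatty acid oxidation and 2 or 3 carriers, and without BNED 1 there were 2 assembly factors. In PFNU against BNED they fell without PFNU 2, PFNU 4, BNED 3 or BNED 4 to 1 in the citric acid cycle and 0 in the other 3 lists, and without BNED 1 to 2 and 0. Glycolysis kept 10 or 11 genes higher in IM without any 1 library, and 6 in PFNU without BNED 3 or BNED 4. With the muscle share in the model, the citric acid cycle, fatty acid oxidation, assembly factor and carrier lists had 0 genes higher with edgeR in either comparison and medians between -0.20 and 0.06. At an unadjusted p under 0.05 the only 1 higher among them was an assembly factor, in IM, while 7 assembly factors, 3 genes of the citric acid cycle, 1 of fatty acid oxidation and 3 carriers were lower there. In PFNU the lower ones were 1 of the citric acid cycle and 1 carrier. Called lower were Cox11 and Pdhb in IM and Slc25a10 in PFNU. Glycolysis then had 7 and 4 of 18 genes higher, with medians of 0.60 and 0.61, where 8% and 11.7% of all genes were called higher, and Hk1 was lower in PFNU. The counts of higher genes were 3 in IM without IM 2, 4 without PMMA bone 4, and 1 in PFNU without IM 4 or PFNU 1 and 2 without PFNU 3 or BNED 3. With the log2 of the share as the covariate these counts were 2 and 0. In the linear fits the 11 fast-fibre genes, all but Pvalb also part of the muscle share, kept positive medians, of 3.46 and 1.39. The part of leftover muscle signal in the glycolysis values was not tested.

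**Figure D5:**
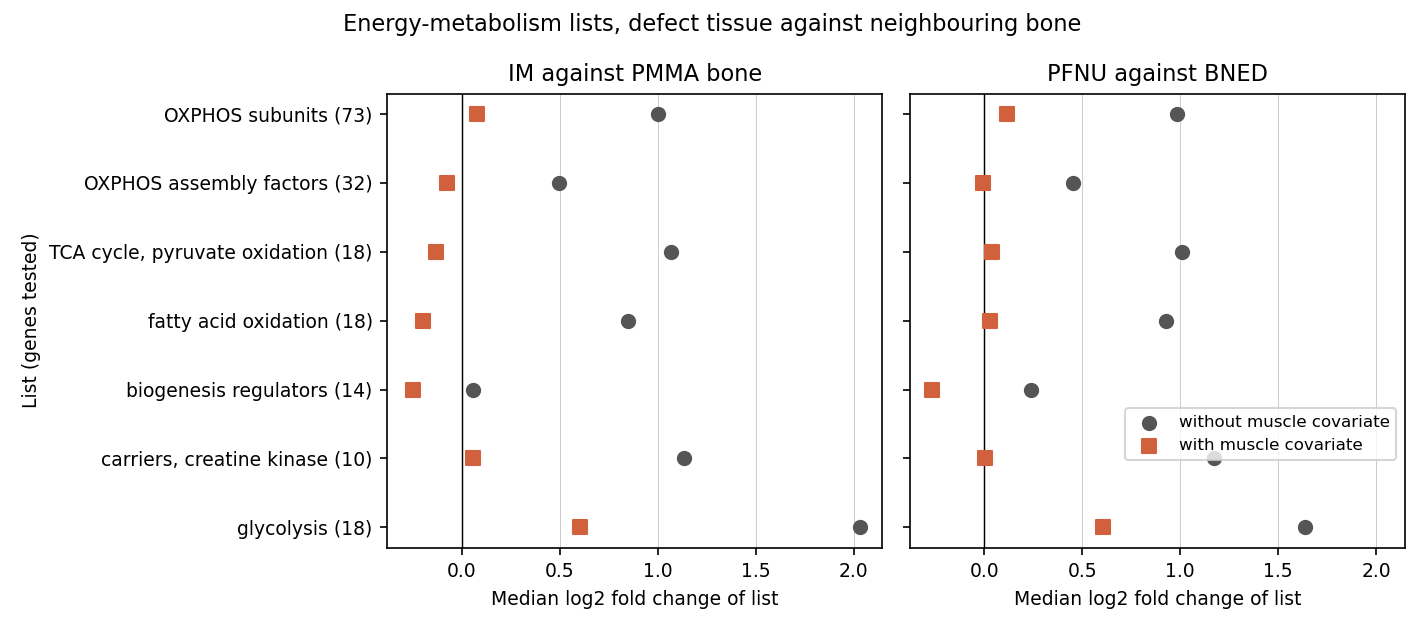
Median log2 fold change (x axis) of the 73 subunit genes and of 6 other lists of energy metabolism (y axis, number of genes tested in brackets) in IM against PMMA bone (left) and PFNU against BNED (right), from fits without (grey circles) and with (orange squares) the muscle share. Without it, glycolysis has the highest median in both comparisons, 2.03 and 1.64; with it, all lists but glycolysis lie between -0.27 and 0.12.

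The promoter windows of the genes were also compared with those of all genes in the RefSeq table. A window of 250 bases before and 50 after the start site was found for 64 of the 73 genes, and 9, Cox6a1 among them, had none. NRF-1 letters were in 28.1% of the 64 windows, against 5.80% of all 33469 windows. ETS letters were in 28.1 against 8.75%, YY1 letters in 23.4 against 3.01% and ERR-alpha letters in 3.13 against 0.433%. MEF2 letters were in 17.2 against 22.4%, and CAGCTG in 14.1 against 15.1%. In the 29 windows of the muscle genes used for the muscle share, none held the NRF-1, ETS, YY1 or ERR-alpha letters, while 44.8% held the MEF2 letters and 34.5% held CAGCTG.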

How the data were processed

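Poly(A)-selected RNA of 16 tissue pieces (4 tissues from each of 4 rats) was sequenced as paired-end reads from stranded libraries, per the labels' protocols. TopHat2 2.0.13 and Bowtie2 2.2.1, FastQC 0.11.3 and DESeq2 are listed beside the rat build rn5, with no roles, in the submitters' processing notes. For the counting tool, its annotation and its strand setting, nothing is given in the sources used here. Raw counts per gene are deposited for 14476 genes, as the authors made them, and every count column was used. How reads of near-identical copies were counted is not stated.

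From the counts, edgeR 4.0.16 in R 4.3.3 gave TMM factors, removed genes of low count with filterByExpr (12857 left, all 73 subunit genes among them) and fitted its quasi-likelihood model to 4 group means over all 16 libraries, with and without the muscle share as a linear covariate. Calls used Benjamini-Hochberg adjusted p under 0.05 over all genes tested. Log2 CPM values used a prior count of 2, and CPM values none. DESeq2 1.42.0 and voom of limma 3.58.1 were alternatives. The procedure was tested on simulated data. The 73 genes, the lists and the tests were chosen with earlier results of these data known. The named genes were a panel of core and isoform subunits plus the 3 with the smallest p in each tissue comparison.

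Library numbers mark the rat, so libraries of 1 number come from the same animal. The correlation of their deviations from the group means ran from -0.35 to 0.50 over 24 same-rat pairs (mean 0.060, 10 above 0.1), against a mean of -0.020 over 72 pairs of different rats. No 2 libraries of a group agreed within sampling noise (lowest chi-square per degree of freedom 80.6). Total counts of 40472228 to 76815879 per library leave counting error small for these genes. RefSeq tables (build GRCr8) gave current names and promoter windows only.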

Additional observations from a re-analysis of the deposited data

Results flagged for a closer look

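In 108 groups of 4 libraries tested, 1 library stood apart from the other 3 of its group. For Ndufv1, the complex I subunit that oxidises NADH, PMMA bone 1 had 78.0 CPM, while the other 3 PMMA bone libraries had 122 to 131 CPM. PMMA bone 1 also had the lowest muscle share of all libraries, 0.268%. Chance flags about 1 in 20 such groups.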

How the results depend on the processing

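Under the alternatives 204 recomputed counts of called subunit genes stayed within 1.5 times the reported count and 30 did not. The 204 include every 0 that stayed 0. The reported count was 0 in the spacer comparisons, in their difference and in all comparisons with the muscle covariate. The tally therefore does not describe the tissue comparisons, whose ranges are given below. All 211 recomputed medians moved by less than 0.479, the SD between libraries of a group of the mean log2 CPM of the subunit genes. That limit is wide. It exceeds the size of every reported median but those of the tissue comparisons without the covariate, so it says little about how stable the small medians are. Among recomputed values of single genes 1462 kept direction and call, 8 changed direction, 91 lost and 74 gained a call. With the rat as a replicate block, 35 genes were called in IM against PMMA bone, 37 in PFNU against BNED, 0 in the spacer comparisons and in all comparisons with the muscle covariate, and 65 had a slope, where Atp5g2 lost its call. Leaving out single libraries gave 1 to 67 genes in IM against PMMA bone, 3 to 58 in PFNU against BNED, 38 to 69 slopes, and, with the covariate, 0 to 13 in IM against PFNU, 0 to 5 in IM against PMMA bone and 0 to 1 in PFNU against BNED. limma-voom with quality weights called 70 genes in PFNU against BNED and 1 in PMMA bone against BNED. Library totals alone gave 8 and 19 genes in the tissue comparisons, and the 8 libraries of IM and PMMA bone alone gave 1, with fewer libraries to estimate the spread; both settings were chosen after seeing the data. With the covariate, DESeq2 called 3 genes and muscle with erythroid share 1 in IM against PFNU, and the log2 of the share called 1 in IM against PMMA bone and 2 in PMMA bone against BNED. Cox6a1 turned to -0.28 with limma-voom and -0.23 with totals in IM against PMMA bone (-0.30 to 0.20 over left-out libraries), Cox8a to -0.34 and -0.17 (-0.21 to 0.31), and Cox6a2 to 0.18 with limma-voom in PMMA bone against BNED (-1.24 to 0.034). Where no cause follows from the construction of a setting, the cause was not tested. Muscle shares of IM and PMMA bone do not overlap, nor do those of PFNU and BNED, so both comparisons with the covariate rest on the shape of the fitted line.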

Other observations

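A pair of subunit-like genes outside the symbol rule differed between the bones. Ndufa4l2, a paralogue of Ndufa4 known to be induced by hypoxia, had 21.1 to 47.9 CPM in PMMA bone and 6.399 to 14.1 in BNED, without overlap, and 30.1 to 65.0 in IM and 18.8 to 28.3 in PFNU. It was higher in PMMA bone than in BNED by 2.01 ± 0.32 (log2 fold change ± standard error, edgeR adjusted p = 0.0174). Ndufa4l2 was also higher in PFNU than in BNED, by 1.34 ± 0.32 (adjusted p = 0.00612). With the muscle share in the model that value was 1.82 ± 0.33 (adjusted p = 0.00171), so BNED was the low group on both counts. Cox4i2, an isoform of subunit IV known from lung and hypoxic cells, had 19.1 to 29.7 CPM in PMMA bone, 4.98 to 14.6 in BNED, 7.99 to 25.3 in IM and 8.59 to 10.6 in PFNU. It was higher in PMMA bone by 1.63 ± 0.37 (adjusted p = 0.029). Both remained called with the muscle share in the model, by 1.95 ± 0.27 and 1.60 ± 0.34, and neither was called with muscle and erythroid share together. Of the 8 subunit genes listed outside the rule, 2 were higher in PMMA bone both without and with the covariate. Among all genes tested, 3.51% were higher there without the covariate and 7.61% with it. Without the covariate the count of 2 became 0 without PMMA bone 2, 3 or 4 or BNED 1 or 3, and 1 without BNED 2. With the covariate it was 2 without any 1 library. Neither gene had a called slope on muscle share (-0.41, adjusted p = 0.0748, and -0.38, adjusted p = 0.19), while Cyc1, Cycs, Ndufab1, Usmg5 and Cox4i1, which carry electrons or belong to the complexes, rose by 1.10, 0.99, 0.88, 0.61 and 0.53 for each 10 percentage points. These genes were singled out after their values were seen.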
